A study of Mus musculus with 18 samples.

Results

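The genes described here are ligands, receptors and latency proteins of transforming growth factor beta (TGF-beta) and activin signalling, read in cultured embryonic mouse bones. The 10 genes were chosen by name: Tgfb1, Tgfb2 and Tgfb3, the TGF-beta ligands, Inhba and Inhbb, which encode the subunits of the activins, Tgfbr1, Tgfbr2 and Tgfbr3, the TGF-beta receptors, and Ltbp1 and Ltbp2, latent TGF-beta binding proteins. All probe sets that the platform annotation names for exactly 1 of these symbols were taken, which gave 23 probe sets for the 10 genes. The array holds 45037 probe sets besides controls, of which 34945 name a single gene, 18193 genes in all. Of the 23, 16 passed the filter on low signal and were tested, with at least 1 for each gene, and 7 were too dim. A probe set is the group of short probes that reads 1 transcript, and each gene is described by its brightest probe set over all arrays, with the others named where they differ. Levels of different probe sets cannot be set against each other.

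Tibiae of E15.5 CD1 mouse embryos, male and female, were grown whole in minimal medium for 6 days. One arm received C-type natriuretic peptide (CNP) at 1e-06 M on days 1, 3 and 5, and the control arm received its carrier, bovine serum albumin in acid (BSA/HCl, 1 mM as the labels state it). CNP is a peptide that promotes the growth of endochondral bones. On day 6 each bone was cut into the resting/proliferating zone, the hypertrophic zone and the mineralized zone, and the pieces of each zone from about 24 bones were pooled. Each treatment had 3 cultures, which the titles number 2, 3 and 4, so that 18 arrays fall into 6 groups of 3 and the 3 zones of a culture come from the same bones. The array titled as vehicle, resting/proliferating, number 4 has a treatment field that reads CNP, and it was grouped by its title. The labels name no engineered allele. A zone is a piece of bone that can hold perichondrium, vessels and marrow cells, and in such pieces fewer cells of a type and less RNA per cell cannot be told apart.

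TGF-beta ligands are secreted in a latent complex, bound to their own propeptide and to a latent TGF-beta binding protein that anchors them in the matrix. Once freed, they bind the type II receptor, Tgfbr2, which brings in and phosphorylates the type I receptor, Tgfbr1, and that kinase activates SMAD2 and SMAD3. Tgfbr3, betaglycan, is a co-receptor that presents ligand, above all TGF-beta 2, to the type II receptor. Activins are dimers of the inhibin beta subunits and use the same SMADs through their own receptors. In the growth plate, TGF-beta signalling is known to hold chondrocytes back from hypertrophy.

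Before normalization the arrays' median signals spanned 39.3 to 174. The zones carried their markers: in vehicle cultures 6 of 6 hypertrophic chondrocyte markers were higher in hypertrophic than in resting/proliferating pieces, and 8 of 8 cartilage markers were lower in mineralized than in hypertrophic pieces. In the same step into the mineralized zone 7 of 7 osteoclast, 6 of 7 macrophage and 4 of 4 endothelial markers tested were higher. Over all probe sets 9.85% were higher in the first of these comparisons, and 11.6% higher and 12.1% lower in the second. The endothelial markers Pecam1 and Vwf fell below the signal filter. No marker was listed at 0 in any group. RNA integrity, read as actin signal at the transcript's 3′ end over that at its 5′ end, was as follows: resting/proliferating pieces had ratios of 2.70 ± 0.31 with vehicle and 4.06 ± 1.30 with CNP (SD, n = 3). Hypertrophic pieces had 2.28 ± 0.08 and 2.95 ± 0.85, and mineralized pieces 1.70 ± 0.13 and 1.76 ± 0.15, in the same order. Its part in the results was not tested.

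The effect of CNP was compared zone by zone. In the hypertrophic zone 3 of the 16 probe sets passed the threshold of an adjusted p of 0.05, where 1.62% of all probe sets did. The genes were chosen with earlier results of these data known, so such counts beside these shares are a description and not a test. Inhba, the activin A subunit, was 2.07-fold higher with CNP (1 of 16, against 0.522% of all probe sets higher). The receptors Tgfbr2 and Tgfbr3 were 1.61-fold and 1.99-fold lower (2 of 16, against 1.10% lower). In the resting/proliferating zone 0 of 16 passed, against 0.0259% of all probe sets, although 7 of 16 had an unadjusted p under 0.05, as 12.1% of all probe sets did. With the culture number as a replicate block 1 of 16 passed there, beside 59 of all probe sets against 7 without it. In the mineralized zone 0 of 16 passed, against 0.00370%, and 0 had an unadjusted p under 0.05, against 3.36% of all. Averaged over the zones of each culture, 0 of 16 passed, against 0.0148%, and 6 had an unadjusted p under 0.05, against 11.6% of all. Tgfbr2 at −0.41 ± 0.08 (adjusted p = 0.136) and Tgfbr3 at −0.66 ± 0.12 (adjusted p = 0.133) came closest, and both passed with the hybridization day as a block (adjusted p = 0.0439 and 0.0492). With the culture number as a replicate block 0 of 16 passed, and these genes had adjusted p = 0.064 and 0.0733. The median log2 fold change of the 10 brightest probe sets was −0.30 in the hypertrophic zone (0.06 over all 16 probe sets, the other sign), −0.35 in the resting/proliferating zone and −0.05 in the mineralized zone, beside −0.01 over all probe sets in the hypertrophic zone. Arrays of the 2 treatments did not overlap for 5 of 16 probe sets in the hypertrophic zone, 6 in the resting/proliferating zone and 1 in the mineralized zone, where 17.3%, 13.9% and 10.3% of all probe sets did not.

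**Figure D1:**
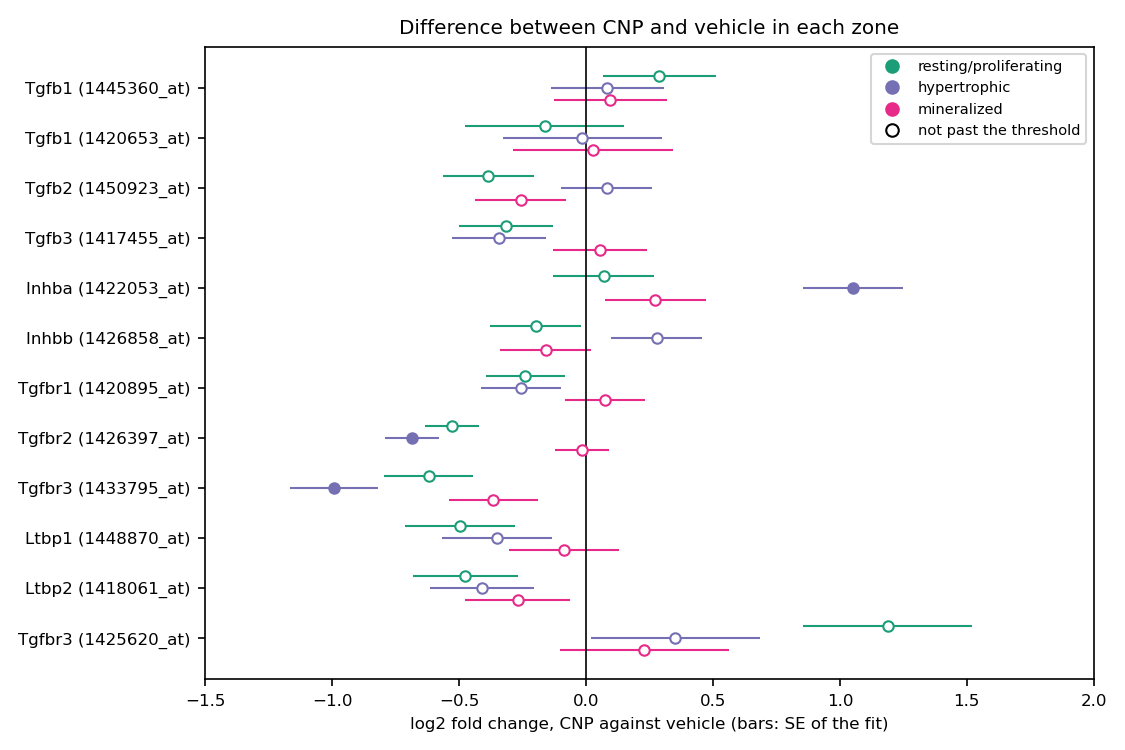
Log2 fold change of CNP against vehicle (x axis) for the brightest probe set of each gene and for 2 further probe sets, by zone in colour, with bars for the standard error of the fit over 18 arrays. Filled points passed an adjusted p of 0.05: Inhba on the right and Tgfbr2 and Tgfbr3 on the left, all in the hypertrophic zone.

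Zones were compared within cultures, and most of the 10 genes differed along the bone. In vehicle cultures the hypertrophic zone differed from the resting/proliferating zone for 6 of 16 probe sets, 1 higher and 5 lower, against 18.6% of all probe sets, 9.85% higher and 8.75% lower. The mineralized zone differed from the hypertrophic zone for 9 of 16, 5 higher and 4 lower, against 23.6%, 11.6% higher and 12.1% lower. The mineralized zone differed from the resting/proliferating zone for 10 of 16, 5 higher and 5 lower, against 30.9%, 15.1% higher and 15.7% lower. In CNP cultures the same 3 comparisons gave 10 of 16 (24.9% of all probe sets), 9 of 16 (32.6%) and 7 of 16 (36.7%). By the brightest probe set, the lowest level of Inhbb, Ltbp1, Tgfbr2 and Tgfbr3 lay in the hypertrophic zone in both treatments. The lowest level of Tgfb2 lay in the mineralized zone. Ltbp2 stood highest in the resting/proliferating zone and Tgfbr1 in the mineralized zone. The 7 dim probe sets, of Inhba, Tgfbr1, Tgfbr2 and Ltbp1, stayed between 1.98 and 181 on every array and were not tested. Among them Tgfbr2 1425444_a_at, which reached 181, had its lowest mean in the resting/proliferating zone. Along the bone its means were 29.1, 69.7 and 132.5 in vehicle and 10.8, 21.9 and 137 in CNP cultures. Its hypertrophic arrays read 38.7 to 93.8 with vehicle and 19.4 to 24.1 with CNP. The other dim probe sets are not described further.

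**Figure D2:**
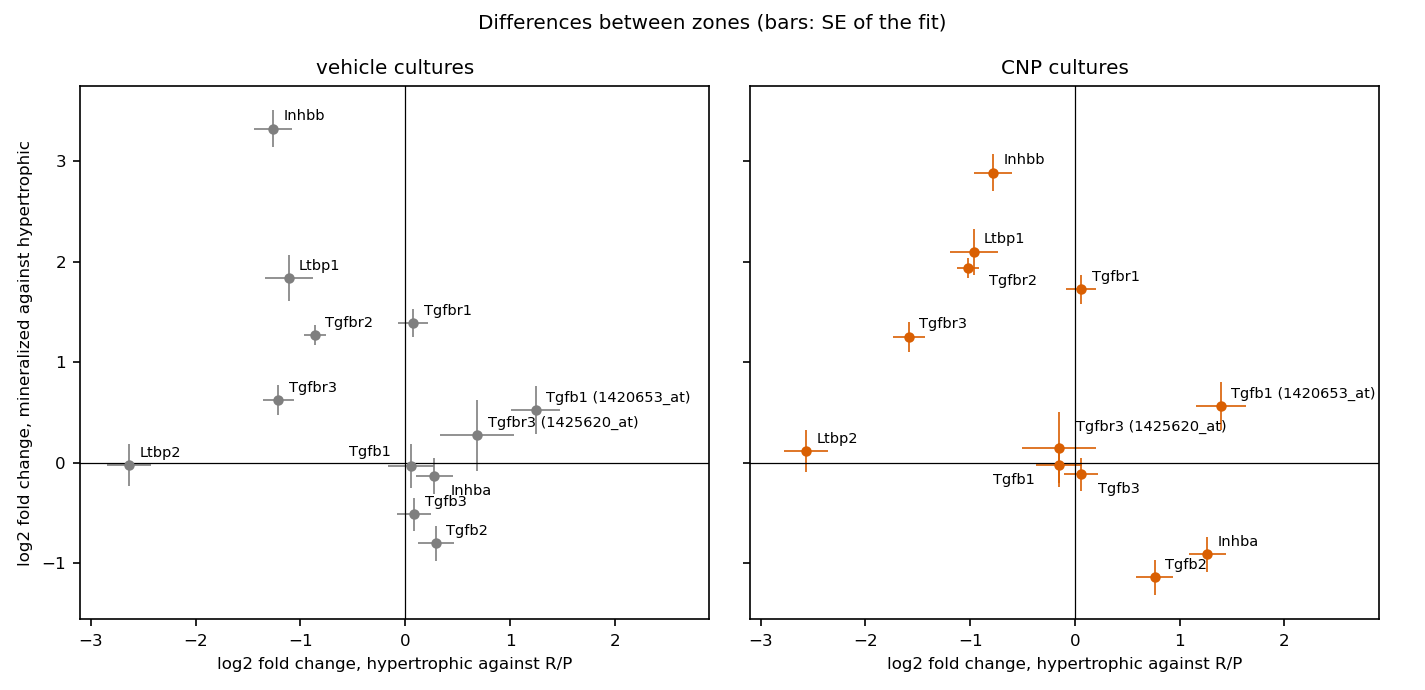
Log2 fold change of the hypertrophic against the resting/proliferating zone (x axis) and of the mineralized against the hypertrophic zone (y axis), in vehicle cultures on the left and CNP cultures on the right, with bars for the standard error of the fit. Genes at the upper left, led by Inhbb, have their lowest level in the hypertrophic zone, and in CNP cultures Inhba and Tgfb2 lie at the lower right, with their highest level there.

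Inhba encodes inhibin beta A, and a dimer of this subunit is activin A. In vehicle hypertrophic pieces its normalized signal (probe set 1422053_at) was 400.5, 379.5 and 645 in cultures 2, 3 and 4, and in CNP hypertrophic pieces it was 781, 1116 and 1059.9. All CNP arrays stood above all vehicle arrays, with the vehicle array of culture 4 the nearest. The log2 fold change was 1.05 ± 0.20 (SE, n = 3 against 3), with an adjusted p = 0.00862. The signal was 314, 421 and 407 in vehicle and 403, 373 and 415 in CNP resting/proliferating pieces, where the difference of 0.07 ± 0.20 did not pass. In mineralized pieces it was 414, 399 and 449 in vehicle and 438, 587 and 519.9 in CNP, a difference of 0.27. The 12 arrays of those other zones lay between 314 and 587, below all 3 CNP hypertrophic arrays. The hypertrophic response exceeded the resting/proliferating one by 0.98 ± 0.25 on the log2 scale, with an adjusted p = 0.169, and the mineralized response fell short of the hypertrophic one by −0.78 ± 0.25, with an adjusted p = 0.38. No zone difference passed for Inhba in vehicle cultures (hypertrophic against resting/proliferating, 0.28 ± 0.18, adjusted p = 0.32). In CNP cultures Inhba was 2.4-fold higher in hypertrophic than in resting/proliferating pieces, a log2 fold change of 1.26 ± 0.18 with an adjusted p = 8.63e-05. The treatment call was lost without vehicle hypertrophic array 2 (adjusted p = 0.0577) or CNP hypertrophic array 3 (adjusted p = 0.0522), without normalization (0.661), with only this pair of groups in the fit (0.0896), and without all arrays numbered 2 (0.0836), 3 (0.185) or 4 (0.0758).

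Inhba is the gene of the 10 that rose with CNP, so the 250 bases before its annotated start are shown, from RefSeq on GRCm38.p6, chr13:16011601-16011850, forward strand, beside those of Tgfbr2, which fell, chr9:116175364-116175613, reverse strand. Capitals mark matches, on either strand, to the 5 motifs searched: the cyclic AMP response element TGACGTCA, the AP-1 site TGANTCA, the SMAD-binding CAGAC, the GC box GGGCGG and the TATA box TATAAA.
Inhba: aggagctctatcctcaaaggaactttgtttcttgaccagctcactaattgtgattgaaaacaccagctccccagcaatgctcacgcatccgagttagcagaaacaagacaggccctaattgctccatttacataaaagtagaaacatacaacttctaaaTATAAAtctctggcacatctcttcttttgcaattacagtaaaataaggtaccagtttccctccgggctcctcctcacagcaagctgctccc
Tgfbr2: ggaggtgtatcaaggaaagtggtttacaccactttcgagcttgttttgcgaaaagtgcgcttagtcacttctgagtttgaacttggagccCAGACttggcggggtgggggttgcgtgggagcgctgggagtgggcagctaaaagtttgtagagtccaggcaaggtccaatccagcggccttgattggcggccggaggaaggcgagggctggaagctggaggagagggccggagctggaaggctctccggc
The Inhba window holds 43.2% G and C and 1 TATA box match, 91 bases before the start, and 12.4% of 32851 mouse promoter windows of this length hold that motif. The Tgfbr2 window holds 58.4% G and C and 1 CAGAC match, 160 bases before the start, a motif in 42.2% of windows. Neither window holds TGACGTCA (1.55% of windows) or TGANTCA (6.75%). A match is a description of letters and not of a bound site.

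Inhbb encodes inhibin beta B, the subunit of activin B, and differed most between zones among the 10 genes by fold change. With probe set 1426858_at its signal in vehicle cultures was 160.4, 182 and 174 in resting/proliferating pieces, 62.8, 63.0 and 61.5 in hypertrophic pieces and 660.3, 851 and 808 in mineralized pieces. The 3 zones did not overlap. The rise from the hypertrophic to the mineralized zone was 3.32 ± 0.18 on the log2 scale, with an adjusted p = 1.52e-08, and the fall from the resting/proliferating to the hypertrophic zone was −1.26 ± 0.18, with an adjusted p = 0.000178. In CNP cultures the signal was 177, 132 and 137, then 77.8, 63.5 and 99.3, then 570.3, 747 and 761. The zones again stood apart, and the rise into the mineralized zone was 2.89 ± 0.18 on the log2 scale. CNP against vehicle gave 0.28 ± 0.18 in the hypertrophic zone, which did not pass (adjusted p = 0.53). The other Inhbb probe set, 1426859_at, ran from 34.0 to 262, and its zones overlapped in both treatments. Its means were 121, 145 and 182 along the bone in vehicle and 158, 182 and 188 in CNP cultures. By these means the hypertrophic zone was not the lowest. This probe set passed in no comparison. Without vehicle resting/proliferating array 2 or vehicle mineralized array 2 it passed for the mineralized against the resting/proliferating zone, with adjusted p = 0.0148 and 0.0207. The summed signal of the 4 endothelial markers tested had the same zone order. It was 630 to 728 in vehicle resting/proliferating, 378 to 460 in hypertrophic and 2307 to 2511 in mineralized pieces. From the resting/proliferating to the hypertrophic zone 2 of the 4 were lower and 2 did not pass, with log2 fold changes from −1.16 to −0.11. All 4 were higher in the mineralized than in the hypertrophic zone. The part of endothelial cells in the Inhbb result was not tested.

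The 250 bases before the starts of Inhbb (chr1:119422249-119422498, reverse strand) and Ltbp2 (chr12:84876492-84876741, reverse strand) are given because these genes had the largest zone differences of the 10. Capitals mark matches to the same 5 motifs.
Inhbb: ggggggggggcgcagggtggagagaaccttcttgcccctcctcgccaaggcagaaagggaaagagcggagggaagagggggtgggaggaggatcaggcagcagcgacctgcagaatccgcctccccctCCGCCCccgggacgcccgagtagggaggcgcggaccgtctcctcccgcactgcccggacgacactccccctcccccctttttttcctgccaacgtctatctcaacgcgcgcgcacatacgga
Ltbp2: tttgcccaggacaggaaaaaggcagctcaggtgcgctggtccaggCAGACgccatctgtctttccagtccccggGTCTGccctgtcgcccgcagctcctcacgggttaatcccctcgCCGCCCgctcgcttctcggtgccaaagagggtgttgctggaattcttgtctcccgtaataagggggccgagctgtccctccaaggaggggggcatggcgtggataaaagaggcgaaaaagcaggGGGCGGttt
The Inhbb window holds 68% G and C and 1 GC box match, 122 bases before the start, and 32.7% of windows hold that motif. The Ltbp2 window holds 61.6% G and C, with 2 GC box and 2 CAGAC matches.

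**Figure D3:**
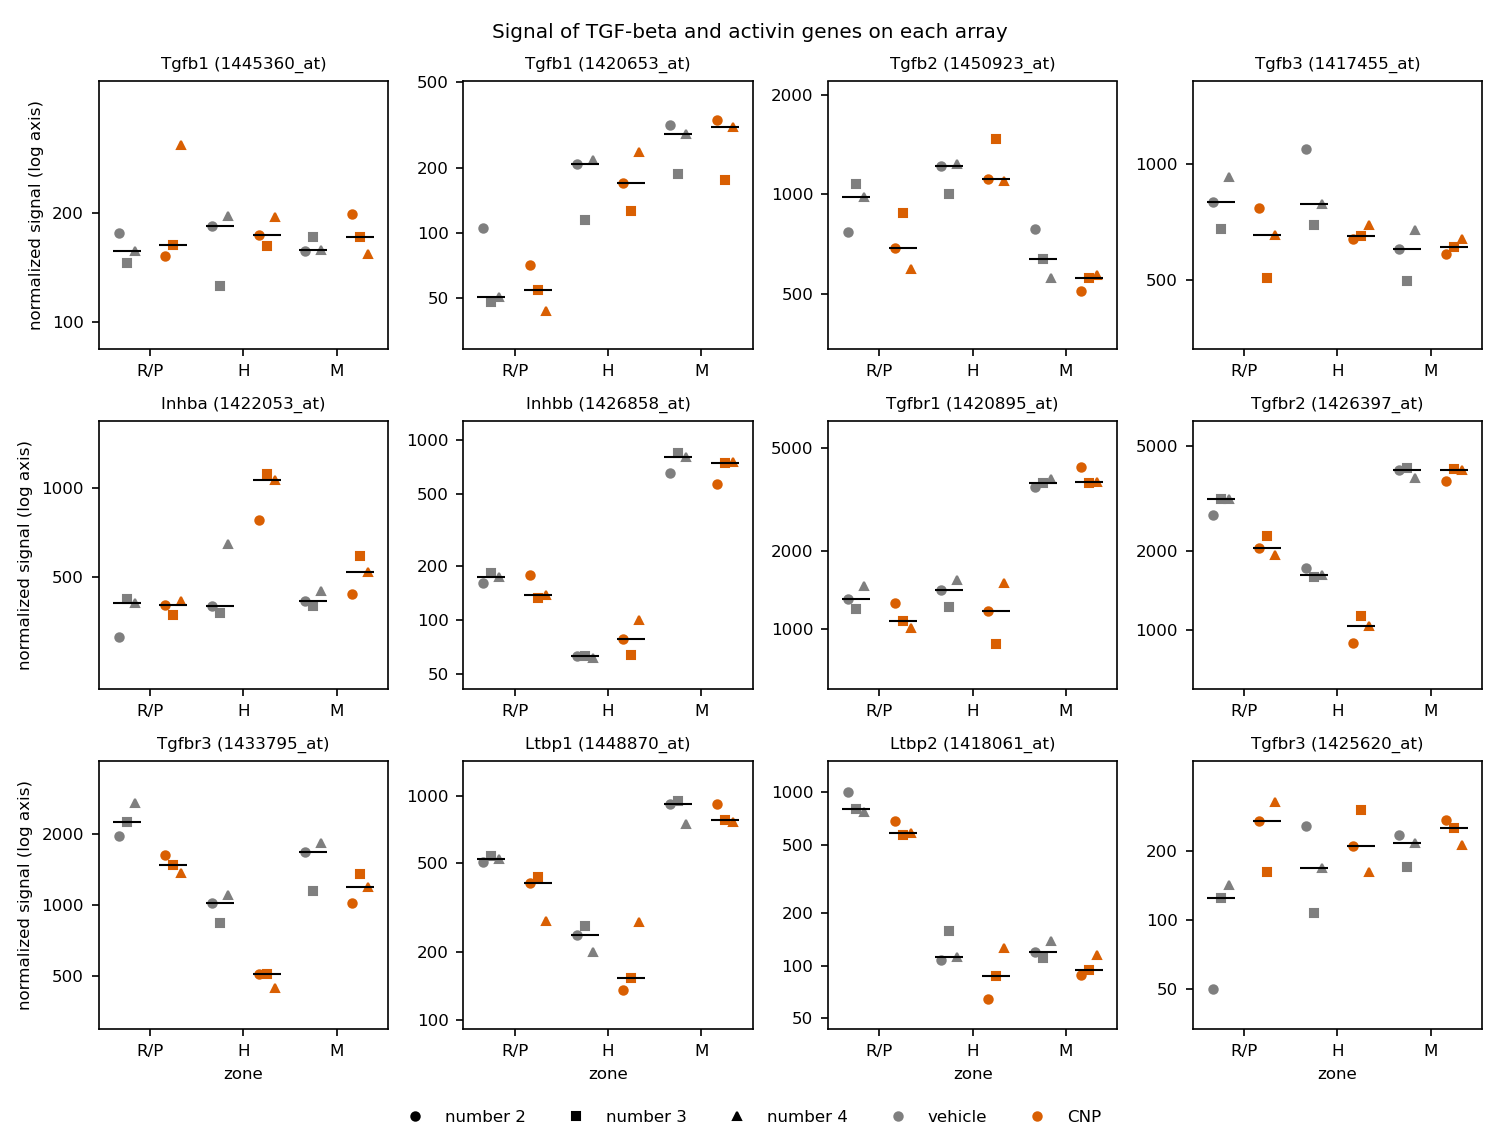
Normalized signal of every array (y axis, log scale) for the brightest probe set of each gene and the 2 further ones named, by zone along the x axis and treatment in colour, shape for the culture number, and a line at the median of each group of 3. The CNP hypertrophic arrays of Inhba stand above all other Inhba arrays, and those of Tgfbr2 and of the brightest Tgfbr3 probe set stand below the vehicle arrays. The 3 zones of Inhbb and Ltbp1 stand apart in both treatments, and so do the mineralized arrays of Tgfbr1 and the resting/proliferating arrays of Ltbp2.

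Tgfb2 encodes TGF-beta 2, the ligand that depends most on betaglycan. Its signal (1450923_at) in vehicle cultures was 772, 1076 and 979.6 in resting/proliferating, 1219, 1006 and 1234 in hypertrophic and 787, 636 and 557 in mineralized pieces. In CNP cultures it was 687, 878 and 595, then 1115, 1469 and 1097, then 508, 558 and 568. Hypertrophic arrays stood above mineralized arrays in both treatments. The mineralized zone was lower than the hypertrophic zone by −0.80 ± 0.17 on the log2 scale in vehicle cultures (adjusted p = 0.00354) and by −1.14 ± 0.17 in CNP cultures (adjusted p = 0.000137). The probe sets 1423250_a_at and 1450922_a_at gave −0.95 and −1.13 in vehicle cultures and passed as well, while the dimmer 1438303_at, between 71.3 and 180 on all arrays, gave −0.08 and did not pass. In CNP cultures Tgfb2 was also higher in hypertrophic than in resting/proliferating pieces by 0.76 ± 0.17 (adjusted p = 0.00458). In vehicle cultures that difference, 0.29 ± 0.17, did not pass, and the difference between the treatments did not pass either. Of CNP against vehicle, the log2 fold change of Tgfb2 was 0.08 in the hypertrophic zone. The mineralized zone was lower than the resting/proliferating zone by −0.50 ± 0.17 in vehicle cultures (adjusted p = 0.0392), a direction that turned to 0.12 without normalization, and the call was lost without vehicle resting/proliferating arrays 3 (adjusted p = 0.23) or 4 (0.157) or vehicle mineralized arrays 3 (0.129) or 4 (0.227).

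Tgfb1 encodes TGF-beta 1, and its 2 probe sets disagree. The brightest, 1445360_at, lay between 126 and 308 on all arrays and passed in no comparison. The other, 1420653_at, rose along the bone: its signal in vehicle cultures was 105, 48.1 and 50.6 in resting/proliferating, 209, 115 and 216 in hypertrophic and 316, 188 and 286 in mineralized pieces. The resting/proliferating arrays stood below all others, while hypertrophic and mineralized arrays overlapped. The mineralized zone was 3.41-fold above the resting/proliferating zone, a log2 fold change of 1.77 ± 0.24 with an adjusted p = 4.07e-05, and the hypertrophic zone was above it by 1.24 ± 0.24, with an adjusted p = 0.00167. In CNP cultures the values were 71.5, 54.6 and 43.6, then 169, 126 and 237, then 334, 175 and 307, and the 2 steps from the resting/proliferating zone were 1.96 and 1.39. CNP against vehicle gave −0.01 in the hypertrophic zone for this probe set.

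Tgfb3 encodes TGF-beta 3, and its signal (1417455_at) varied little, from 496 to 1089 over 18 arrays. The 1 comparison that passed was the mineralized against the hypertrophic zone in vehicle cultures, −0.51 ± 0.16 with an adjusted p = 0.0332, and it was lost without any 1 of vehicle hypertrophic arrays 2 (adjusted p = 0.22) or 3 (0.0907) or vehicle mineralized arrays 2 (0.162), 3 (0.0983) or 4 (0.0584). With CNP in the hypertrophic zone Tgfb3 differed by −0.34 ± 0.18 (adjusted p = 0.43).

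Tgfbr2 encodes the type II receptor, which binds the ligand directly. Its signal in vehicle hypertrophic pieces (1426397_at) was 1717, 1588 and 1616, and with CNP it was 893, 1127 and 1035. The 2 groups did not overlap. The log2 fold change was −0.69 ± 0.11, with an adjusted p = 0.00229, and the call was kept when any 1 array was left out. It was lost with each array centred on its median (−0.58, adjusted p = 0.199), without normalization (0.457), with only this pair of groups in the fit (0.0793), and without all arrays numbered 2 (0.103) or 4 (0.1). In resting/proliferating pieces the signal was 2727, 3137 and 3139 in vehicle and 2042, 2266 and 1921 in CNP. These groups did not overlap either, and the difference of −0.53 ± 0.11 had an adjusted p = 0.0764. It passed with the culture number as a replicate block (adjusted p = 0.0405), with the hybridization day as a block (adjusted p = 0.0377), and without CNP resting/proliferating array 3 (adjusted p = 0.01). In mineralized pieces the signal was 4061, 4128 and 3763 in vehicle and 3672, 4096 and 4042 in CNP, with overlap. The response of the mineralized zone exceeded that of the hypertrophic zone by 0.67 ± 0.14, with an adjusted p = 0.149. Along the bone Tgfbr2 was lowest in the hypertrophic zone. It fell by 0.86 ± 0.10 from the resting/proliferating zone in vehicle cultures (adjusted p = 2.72e-05) and rose by 1.27 ± 0.10 into the mineralized zone (adjusted p = 4.53e-07). In CNP cultures these steps were −1.02 ± 0.10 and 1.94 ± 0.10. The vehicle difference between the mineralized and the resting/proliferating zone, 0.41 ± 0.10, was lost without vehicle resting/proliferating array 2 (adjusted p = 0.0602).

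Tgfbr3 encodes betaglycan. Its brightest probe set, 1433795_at, read 1019, 840.0 and 1104 in vehicle and 507, 506 and 444 in CNP hypertrophic pieces. The 3 CNP arrays lay close together and below all vehicle arrays. The log2 fold change was −0.99 ± 0.17, with an adjusted p = 0.00578, and the call was kept when any 1 array was left out (highest adjusted p = 0.0423). It was lost without normalization (adjusted p = 0.163) and without all arrays numbered 2 (0.11) or 4 (0.175). In resting/proliferating pieces the signal was 1969.6, 2252 and 2719 in vehicle and 1634, 1475 and 1362 in CNP, without overlap, and the difference of −0.62 ± 0.17 did not pass (adjusted p = 0.179). In mineralized pieces it was 1672, 1149 and 1842 in vehicle and 1015, 1359 and 1189.9 in CNP, with overlap. The dimmer probe set 1425620_at went the other way in resting/proliferating pieces. It read 50.0, 124 and 142 in vehicle and 269, 161 and 326 in CNP, a difference of 1.19 ± 0.33 that did not pass (adjusted p = 0.179) but did without CNP resting/proliferating array 3 (adjusted p = 0.0294). In the hypertrophic zone the dimmer probe set differed by 0.35 ± 0.33, so the fall of Tgfbr3 there rests on 1 of its 2 probe sets. Along the bone the brightest probe set fell by 1.21 ± 0.15 from the resting/proliferating to the hypertrophic zone in vehicle cultures (adjusted p = 3.85e-05) and by 1.58 ± 0.15 in CNP cultures. It rose by 0.63 ± 0.15 into the vehicle mineralized zone (adjusted p = 0.00607), which was lost without vehicle mineralized array 2 (adjusted p = 0.0576), and by 1.26 ± 0.15 in CNP cultures. The vehicle difference of the mineralized from the resting/proliferating zone, −0.58 ± 0.15, was lost without vehicle resting/proliferating array 3 (adjusted p = 0.0694) or vehicle mineralized array 3 (0.0756). The dimmer probe set passed in no comparison between zones of vehicle cultures. Its mean signals there were 105 in resting/proliferating, 176 in hypertrophic and 207 in mineralized pieces. With CNP its means were 252, 224 and 244. The zone pattern of Tgfbr3 thus also rests on its brightest probe set.

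Tgfbr1 encodes the type I receptor kinase and separated the mineralized zone from the others. Its signal (1420895_at) in vehicle cultures was 1301, 1189.9 and 1463 in resting/proliferating, 1419.7, 1219 and 1542 in hypertrophic and 3524, 3678 and 3801 in mineralized pieces. In CNP cultures it was 1262, 1074 and 1009, then 1175, 878 and 1502, then 4229, 3668 and 3716. In both treatments every mineralized array stood above every other array, and the other zones overlapped. The mineralized zone was 2.62-fold above the hypertrophic zone in vehicle cultures, a log2 fold change of 1.39 ± 0.14 with an adjusted p = 4.95e-06, and 3.3-fold above it in CNP cultures. CNP against vehicle in the hypertrophic zone gave −0.26 ± 0.16, which did not pass (adjusted p = 0.5).

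Ltbp1 encodes the main carrier of latent TGF-beta in matrix. Its signal (1448870_at) in vehicle cultures was 507, 538 and 521 in resting/proliferating, 238, 263 and 201 in hypertrophic and 925, 953 and 753 in mineralized pieces. In CNP cultures it was 406, 433 and 277, then 136, 153 and 272, then 923, 785 and 764. The vehicle zones did not overlap, and in CNP cultures the hypertrophic array of culture 4 came close to the lowest resting/proliferating array. The log2 fold change of the hypertrophic against the resting/proliferating zone was −1.11 ± 0.23 in vehicle cultures (adjusted p = 0.00297), and that of the mineralized against the hypertrophic zone was 1.84 ± 0.23 (adjusted p = 3.09e-05). The vehicle difference of the mineralized from the resting/proliferating zone, 0.72 ± 0.23, had an adjusted p = 0.0251 and was lost without vehicle resting/proliferating arrays 2 (0.101) or 3 (0.0938) or vehicle mineralized arrays 2 (0.0986), 3 (0.0863) or 4 (0.0562). CNP against vehicle gave −0.35 ± 0.22 in hypertrophic and −0.50 ± 0.22 in resting/proliferating pieces, and neither passed.

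Ltbp2 encodes a relative that binds fibrillin and does not bind latent TGF-beta. It marked the resting/proliferating zone: its signal (1418061_at) in vehicle cultures was 1007, 802 and 775 there, 108, 158 and 112 in hypertrophic and 119.6, 110.3 and 139 in mineralized pieces. In CNP cultures it was 679.8, 571 and 587, then 64.5, 87.2 and 126, then 88.7, 94.1 and 115. Every resting/proliferating array stood above every other array, and the other zones overlapped. The hypertrophic zone was 6.2-fold lower than the resting/proliferating zone in vehicle cultures, a log2 fold change of −2.63 ± 0.21 with an adjusted p = 5.85e-07. The mineralized zone was 6.29-fold lower, and the CNP cultures gave −2.57 and −2.45 on the log2 scale. The CNP resting/proliferating arrays all lay below the vehicle ones, but the difference of −0.48 ± 0.21 did not pass (adjusted p = 0.36).

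The arrays of culture 3 were hybridized on 1 day and those of cultures 2 and 4 on another. With the day as a block the adjusted p-values of Inhba, Tgfbr2 and Tgfbr3 in the hypertrophic zone were 0.00742, 0.000951 and 0.00429, and culture 3 alone gives 1 array against 1 and no test. The fluidics log of 4 arrays was aborted, among them the vehicle hypertrophic array of culture 2. Without those 4 arrays, an alternative chosen after seeing the data, 2 of the 3 calls remained, Tgfbr2 (adjusted p = 0.0314) and Tgfbr3 (adjusted p = 0.0475), while Inhba had an adjusted p = 0.0869 at a log2 fold change of 0.95.

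No difference between zones in the response to CNP passed for the 16 probe sets, where 0.167% of all probe sets passed for the hypertrophic against the resting/proliferating zone, 0.0666% for the mineralized against the hypertrophic zone, and 0 for the mineralized against the resting/proliferating zone. At an unadjusted p under 0.05 these comparisons held 2, 3 and 2 of the 16, beside 10.5%, 7.47% and 7.43% of all probe sets. The 3 calls of the hypertrophic zone are therefore not shown to be absent from the other zones.

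Markers of other cell types changed in the same hypertrophic pieces, where 0.522% of all probe sets passed as higher and 1.10% as lower. The summed signal of 7 perichondrium and fibroblast markers was 18957 to 23230 in vehicle and 11163 to 16030 in CNP arrays, and 3 of the 7 passed as lower: Col3a1, Postn and Dcn. The sum of 7 osteoclast markers was 6449 to 7265 in vehicle and 2268 to 4341 in CNP arrays, with 1 of 7 lower, Mmp9, and the sum of 5 osteoblast markers was 6460 to 9107 and 3837 to 5723, with 0 of 5 past the threshold. The sums of 7 macrophage markers, 1986 to 2587 and 1810 to 2450, overlapped, with 1 of 7 lower, Cd68. So did the sums of 4 endothelial markers, 378 to 460 and 407 to 483, and of 8 chondrocyte markers, 55809 to 61588 and 53571 to 58036, with 0 called in either list. Of 3 muscle markers tested, 1 was higher and 1 lower. The part of these cells in the Inhba, Tgfbr2 and Tgfbr3 results was not tested.

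**Figure D4:**
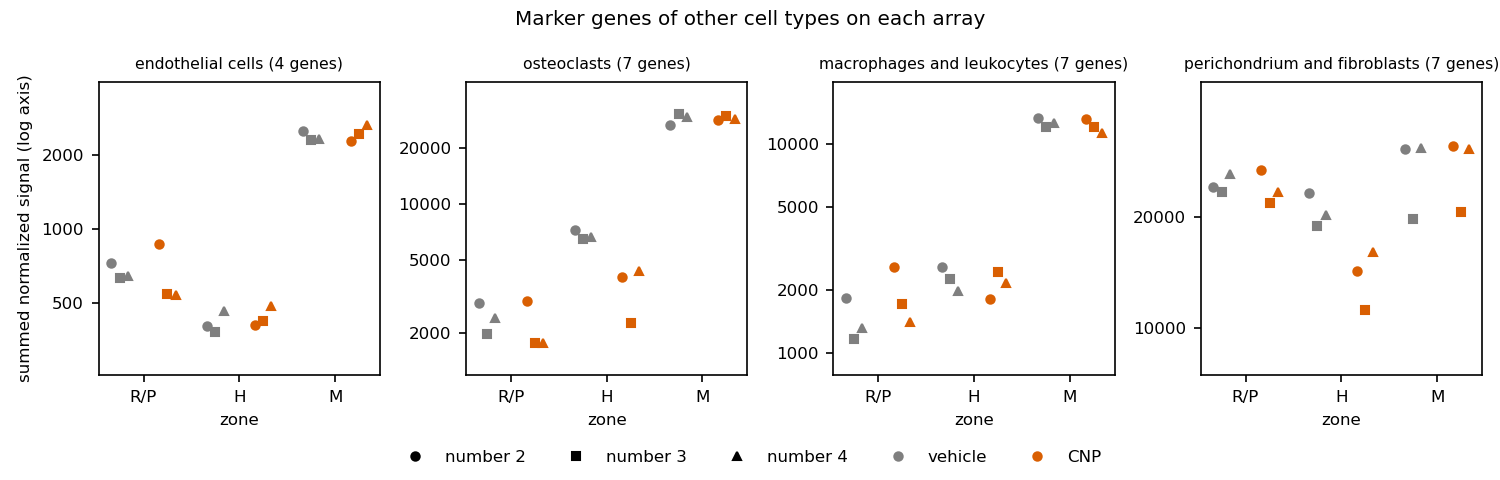
Summed normalized signal of 4 marker lists on every array (y axis, log scale), by zone along the x axis, treatment in colour and culture number in shape. In hypertrophic pieces (H) the CNP arrays lie below the vehicle arrays for the perichondrium and osteoclast lists and overlap them for the endothelial and macrophage lists, and in mineralized pieces (M) the endothelial, osteoclast and macrophage sums are above those of the other zones.

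Other genes of the pathway were read from 5 lists chosen by function. With CNP in the hypertrophic zone 0 of 7 further receptors and 0 of 13 genes of the SMAD machinery passed, against 1.62% of all probe sets. The receptors with the largest changes were Eng, endoglin, at −0.49 ± 0.40, and Acvr1b, the activin type I receptor, at −0.30 ± 0.28. Pmepa1, which dampens SMAD activation and is itself induced by TGF-beta, stood at 0.84 ± 0.23 (adjusted p = 0.0683), and Ski, a SMAD co-repressor, at −0.82 ± 0.29 (adjusted p = 0.179). Ski passed without CNP hypertrophic array 4 (adjusted p = 0.01). The median log2 fold changes of these 2 lists were −0.14 and 0.09.

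Of 9 extracellular binders and inhibitors tested, 0 were higher and 3 lower with CNP in the hypertrophic zone, against 0.522% and 1.10% of all probe sets. All 3 were small leucine-rich proteoglycans of the matrix. Aspn, asporin, fell by 1.27 ± 0.27 on the log2 scale (adjusted p = 0.0222). Bgn, biglycan, fell by 1.05 ± 0.19 (adjusted p = 0.00674), and Dcn, decorin, fell by 0.32 ± 0.08 (adjusted p = 0.046). The Bgn call was kept when any 1 array was left out. The Aspn call was lost without vehicle hypertrophic arrays 2 (adjusted p = 0.116), 3 (0.0509) or 4 (0.0564) or CNP hypertrophic array 3 (0.106). The Dcn call was lost without any 1 of the 6 arrays compared, with adjusted p from 0.0734 to 0.147, and its direction turned to 0.015 with each array centred on its median. The 6 members that did not pass ran up to 0.70, and the median of the list was −0.06.

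Of 14 genes of latency and activation 0 were higher and 2 lower, against 0.522% and 1.10% of all probe sets, and the median was −0.31. Itgb3, the integrin beta 3 chain, fell by 1.15 ± 0.24 (adjusted p = 0.0176), and Mmp9, a matrix metalloproteinase that is also in the osteoclast list, fell by 1.17 ± 0.26 (adjusted p = 0.0251). The Itgb3 call was lost without vehicle hypertrophic arrays 2 (0.0868) or 4 (0.0922) or CNP hypertrophic array 2 (0.081). The Mmp9 call was lost without vehicle hypertrophic arrays 2 (0.119) or 4 (0.0766) or CNP hypertrophic arrays 2 (0.0529) or 3 (0.132).

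Of 20 TGF-beta target genes 0 were higher and 2 lower, against 0.522% and 1.10% of all probe sets, and the median was −0.23. Col3a1, type III collagen, fell by 0.75 ± 0.11 (adjusted p = 0.00131). Postn, periostin, fell by 0.61 ± 0.12 (adjusted p = 0.0158), a call that was lost without vehicle hypertrophic array 2 (0.0936) or CNP hypertrophic array 3 (0.0925). Both genes also stand in the perichondrium list. The Col3a1 call was kept when any 1 array was left out but lost with each array centred on its median. In the resting/proliferating and mineralized zones 0 genes of all 5 lists passed with CNP, against 0.0259% and 0.00370% of all probe sets. In the resting/proliferating zone the largest changes were those of Tgif1, a SMAD co-repressor, at −0.94 ± 0.36, and Thbs1, thrombospondin 1, at −0.72 ± 0.27. The largest in the other direction were those of Lefty1, of the binders and inhibitors, at 0.68 ± 0.33, and Cdkn2b, a target gene, at 0.66 ± 0.16 (adjusted p = 0.118). Without CNP resting/proliferating array 3 Tgif1 and Thbs1 passed, with adjusted p = 0.00782 and 0.0111. Cd109 and Mmp2, at −0.49 and −0.61 with all arrays, and Cdkn2b passed as well, with 0.0313, 0.0425 and 0.0268. Without that array 912 of all probe sets passed, against 7 with it, and the 3′ to 5′ actin ratio, 2.55 on that array, was 4.76 and 4.85 on the other CNP arrays and 2.44 to 3.05 on the vehicle arrays. Its part in these results was not tested.

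Between zones of vehicle cultures the lists moved with many other genes. Over all probe sets 9.85% were higher and 8.75% lower in the hypertrophic than in the resting/proliferating zone. In the step to the mineralized zone 11.6% were higher and 12.1% lower. The lists hold 1 probe set for each gene, while these shares count every probe set tested. From the resting/proliferating to the hypertrophic zone 0 binders and inhibitors were higher and 5 of 9 lower, led by Fmod, fibromodulin, at −1.68 ± 0.21, and Fstl1, follistatin-like 1, at −1.32 ± 0.11. Cd109 and Fst, follistatin, which binds activins, differed by −0.86 and −0.67, and the Fst call was lost without vehicle resting/proliferating arrays 2 (adjusted p = 0.0526) or 4 (0.112) or vehicle hypertrophic array 4 (0.11). In the step to the mineralized zone 6 of 9 were higher and 0 lower, with Fmod at 1.23 ± 0.21, Cd109 at 1.14 ± 0.17, Fstl1 at 1.14 ± 0.11 and Fst at 1.07 ± 0.17. These 4 genes thus had their lowest level in the hypertrophic zone, as the brightest probe sets of Inhbb, Ltbp1, Tgfbr2 and Tgfbr3 did.

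Of the 7 further receptors 1 was higher and 1 lower in the hypertrophic than in the resting/proliferating zone, against 9.85% and 8.75% of all probe sets. These were Bambi, a decoy receptor, at 1.32 ± 0.12 and Acvr2a, an activin type II receptor, at −0.71 ± 0.17. In the mineralized against the hypertrophic zone 4 were higher and 0 lower, against 11.6% and 12.1% of all probe sets. The 4 were Eng at 1.60 ± 0.39, Acvr1 at 1.43 ± 0.17, Acvrl1 at 0.92 ± 0.22 and Bambi at 0.52 ± 0.12. The Eng call was lost without vehicle hypertrophic array 4 (adjusted p = 0.0599) or vehicle mineralized array 4 (0.0522). The Bambi call in this step was lost without vehicle hypertrophic array 4 (0.0622) or vehicle mineralized arrays 3 (0.055) or 4 (0.0506). Eng and Acvrl1 are known for their part in endothelial cells, whose 4 tested markers were all higher in the mineralized zone, and their part in this result was not tested.

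Of the 13 genes of the SMAD machinery 2 were higher and 2 lower in the hypertrophic than in the resting/proliferating zone, against 9.85% and 8.75% of all probe sets. In the mineralized against the hypertrophic zone 3 were higher and 0 lower, against 11.6% and 12.1%. The 3 of 13 called in that step lay near the 23.6% of all probe sets called. Ski differed by −1.37 ± 0.31 and then by 1.18 ± 0.31, the other 3 of the earlier step being Smurf1 at 0.61, Skil at 0.57 and Trim33 at −0.31. Of these, the Ski call is the one that was kept without any 1 array in that step. Smurf1 was lost without vehicle resting/proliferating arrays 2 (adjusted p = 0.18) or 4 (0.167) or vehicle hypertrophic arrays 2 (0.233) or 4 (0.0647). Trim33 was lost without any 1 of the 6 arrays compared (0.0623 to 0.201), and Skil without vehicle hypertrophic array 4 (0.066). In the later step Pmepa1 at 0.91 ± 0.21 was lost without vehicle mineralized array 2 (0.0658). Ski was lost there without vehicle hypertrophic arrays 2 (0.0566) or 3 (0.0518) or vehicle mineralized arrays 2 (0.0571) or 4 (0.0597). Smad7, the inhibitory SMAD, at 0.48 ± 0.16, was lost without vehicle hypertrophic arrays 2 (0.0598), 3 (0.159) or 4 (0.137) or vehicle mineralized arrays 2 (0.0958) or 3 (0.264).

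Of the 14 genes of latency and activation 2 were higher and 2 lower in the hypertrophic than in the resting/proliferating zone, against 9.85% and 8.75% of all probe sets. Mmp9 differed by 3.71 ± 0.21, Itgb3 by 3.11 ± 0.22, Fbn2, fibrillin 2, by −1.40 ± 0.19 and Mmp2 by −0.86 ± 0.15. In the mineralized against the hypertrophic zone 7 were higher and 1 lower, against 11.6% and 12.1% of all probe sets. The largest changes were those of Nrros, which tethers latent TGF-beta on myeloid cells, at 2.86 ± 0.29, Mmp9 at 1.85 ± 0.21, Itgav at 1.31 ± 0.21 and Itgb8 at 1.13 ± 0.24. Itgav and Itgb8 together form an integrin that activates latent TGF-beta.

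Of the 20 target genes 5 were higher and 3 lower in the hypertrophic than in the resting/proliferating zone, against 9.85% and 8.75% of all probe sets. The largest changes were those of Prg4, lubricin, at −1.79 ± 0.23, Col1a1 at 1.60 ± 0.31, Cdkn2b, a cell cycle inhibitor, at 1.36 ± 0.16 and Id3 at 0.97 ± 0.13. In the mineralized against the hypertrophic zone 10 were higher and 1 lower, against 11.6% and 12.1% of all probe sets. Tagln and Acta2, smooth muscle cytoskeletal genes, differed by 1.88 ± 0.24 and 1.52 ± 0.15, Id3 by 1.40 ± 0.13, and Tgfbi, the 1 lower gene, by −1.59 ± 0.22. The list medians of this step were 0.36 for latency and activation and 0.46 for the target genes, beside −0.03 over all probe sets.

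Genes whose levels followed each of the 10 most closely over the 18 arrays were found among 13246 others by Pearson's r, as a description, since all arrays share the zone differences. Inhbb was most like She and Cdh5, the latter encoding VE-cadherin of endothelial cells, with r = 0.987 and 0.984. Tgfbr1 was most like Atp6ap2 and Ano6, both with r = 0.981. Ltbp2 followed 6330403K07Rik and Gpr85 (0.978 and 0.974), and Tgfbr2 followed Timeless and Sall2 (0.971 and 0.962). Ltbp1 was most like Itga9 and Pcdhb9 (0.970 and 0.968), and Tgfbr3 was most like Nfix and Cbx6 (0.940 and 0.925).

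For Tgfb2 the nearest were Agpat4 and Axin2 (0.918 and 0.912) and for Inhba Ntn4 and Nploc4 (0.895 and 0.888). Tgfb3 lay nearest to Rarg and Nup153 (0.817 and 0.804), and the flat Tgfb1 probe set to Nprl3 and D630023F18Rik (0.785 and 0.701). Among the 10 genes themselves, Tgfbr2 and Ltbp1 were the most alike, with r = 0.954 over the 18 arrays and 0.357 after the group means were removed. Inhbb followed Ltbp1 and Tgfbr1 with r = 0.919 and 0.904 (0.306 and 0.496 within groups), and ran against Tgfb2 with r = −0.829 (−0.285 within groups). Tgfb2 and Tgfbr2 had r = −0.728 over the arrays and 0.801 within groups.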

How the data were processed

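RNA of 18 samples was measured on 18 Affymetrix mouse arrays, a one-colour platform. The authors deposited 1 table of linear signal intensity per probe set, and per the series' design text they used GeneSpring 7.2. The step from probe brightness to these values is not stated in the sources at hand, and the arrays had not been brought to 1 level. Of 45101 probe sets 64 controls were left out. For every test the signal was quantile-normalized and put on the log2(signal + 16) scale, on which fold changes of dim genes are understated. Probe sets in the lowest 40% of mean signal were left out, which left 27022. For arrays, their number limits the precision.

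All tests were two-sided, by limma 3.58.1 (lmFit, then eBayes with trend) in R 4.3.3. P-values were adjusted over all 27022 probe sets by the Benjamini-Hochberg method, and 0.05 was the threshold. CNP was compared with vehicle within each zone in 1 fit of 6 groups by title, and on the culture means for the average. Comparisons between zones, and between the zones' responses to CNP, had the culture as a block. Errors are standard errors of the fit unless SD is stated. Deviations of same-numbered CNP and vehicle arrays from their group means correlated with r = 0.187, 0.378 and 0.154 in the resting/proliferating zone and 0.173, 0.337 and 0.213 for the culture means. The results reported for these comparisons are from the fits without pairing, and values with the number as a replicate block stand beside them. In each of the other zones at least 1 r was below 0.1. Same-numbered arrays also share a hybridization day, so these correlations cannot decide whether the cultures were pairs.

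Symbols came from the platform annotation, and promoter windows from RefSeq. No promoter entry was used for Tgfb3 and Tgfbr3. The genes, the lists and the naming rules were chosen with earlier results of these data known. Values of every array are given for brightest probe sets past the threshold with CNP or with a zone difference of at least 2-fold. Of each list up to 4 called genes with the largest change are named per comparison, or up to 2 where none passed. Fbn1, Lrrc32, Ctgf, Bglap, Spp1 and Runx2 were not analysed here, having no probe set that names them alone. Below the signal filter were Acvr2b, Fstl3, Nbl1, Lefty2, Itgb6, Calcr, Pecam1, Vwf, Myog, Myh3 and Acta1. The pipeline was tested on simulated data: for CNP in the hypertrophic zone, over 27022 probe sets, it called 54% of changes of 1 on the log2 scale and 14% of changes of 0.5. Alternatives were another normalization, pseudocount and filter, blocks, arrays left out and the disputed label. Leaving out 4 arrays whose fluidics log was aborted was added after seeing the data.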

Additional observations from a re-analysis of the deposited data

How the results depend on the processing

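Of 5352 values of single probe sets under alternatives, 5076 kept direction and side of the threshold, 233 lost the call, 40 gained it and 3 turned direction. The cause of these changes was not tested. Turned were Dcn with CNP in the hypertrophic zone (0.015 with each array centred on its median) and, without normalization, Tgfb2 1423250_a_at (0.10) and 1450923_at (0.12) for the mineralized against the resting/proliferating zone in vehicle cultures. Without normalization the median of all probe sets moved to -0.35 in the CNP comparison of the hypertrophic zone and to 0.58 in the vehicle comparison of the mineralized with the resting/proliferating zone. With CNP in the resting/proliferating zone 1 of 16 probe sets passed with the hybridization day as a block and 1 with a replicate block, and 0 to 2 with arrays left out. Over all probe sets 7 passed there, 59 with the replicate block, 46 with the day block and 912 without CNP array 3. In the hypertrophic zone 3 became 0 without normalization, 1 when just the pair of groups was fitted, and 0 to 3 with arrays left out. Over all probe sets 438 passed there, 141 of them higher, against 94 without normalization (9 higher), 299 with median centring (128 higher), 155 with just that pair, 176 without the 4 arrays with an aborted log, 78 without all arrays numbered 2 and 71 without those numbered 4. Averaged over zones, 2 of 16 passed with the day block (128 of all probe sets, against 4, and 35 with the replicate block). For the mineralized against the resting/proliferating zone in vehicle cultures the 10 calls became 6 to 9 with arrays left out, and for the hypertrophic against the resting/proliferating zone in CNP cultures the 10 became 6 without normalization. In the hypertrophic and mineralized zones the replicate block did not change the count of the 16 (674 calls in the whole hypertrophic comparison). Whether same-numbered cultures were pairs was not settled. Leaving out the array with disputed labels, or counting it as CNP, kept 0 calls of 16 in the resting/proliferating zone. Not run were the day block for zone comparisons, since each culture had 1 day, and the fluidics run as a block and the omission of aborted arrays for the average.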
